A study of Homo sapiens with 6 samples.

Results

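A total of 9 genes that mark or regulate the neuroendocrine state was followed in C4-2 prostate cancer cells and in their enzalutamide-resistant derivative. The genes were chosen by name, as the markers ENO2, SYP, CHGA, CHGB and NCAM1, the regulators INSM1, SRRM4 and PEG10 and the repressor REST, and all 9 were found among the 59565 loci of the count table. C4-2 is an established prostate cancer line derived from LNCaP, and enzalutamide is an antiandrogen drug. Gene counts from RNA sequencing were available for 3 libraries of the parental line and 3 of the resistant line, labelled Enz-R. The labels give neither the dose or length of enzalutamide exposure nor whether Enz-R is 1 clone, nor do they say that the libraries came from different cultures. The p-values therefore refer to the variation among these 6 libraries, which may be technical.

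Neuroendocrine cells of the prostate are rare secretory epithelial cells that store peptide hormones in dense-core granules. Prostate adenocarcinoma under antiandrogen therapy can take on features of these cells, with loss of luminal markers and gain of granule proteins, synaptic vesicle proteins and neuronal adhesion molecules. REST binds a DNA element, RE1, near many neuronal genes and holds them silent in epithelial cells through corepressor complexes. The splicing factor SRRM4 counteracts REST by directing inclusion of an exon that truncates the REST protein, and NEUROD1 and INSM1 are transcription factors that drive neuroendocrine genes.

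In Enz-R, PEG10, ENO2 and SYP transcripts were higher, REST was at nearly the parental level, and the other 5 genes had few or no counts in either line. PEG10 rose 6.46-fold, ENO2 2.87-fold and SYP 2.24-fold. CHGB, INSM1, NCAM1 and SRRM4 were near zero in both lines, taken here as under 0.5 CPM in every library. CPM is the usual count scaled to a fixed library size, here the total over tested genes with TMM factors. CHGA reached at most 0.601 CPM, in a parental library, and was lower in Enz-R. In the edgeR quasi-likelihood test, Benjamini-Hochberg adjusted over the 19029 genes that passed a low-count filter, 3 of the 4 members tested were called higher at adjusted p under 0.05 and 0 lower. With the filter removed 1 was called lower, CHGA, and with library totals as the only scaling 1 was called lower, REST. Over all genes tested, 32.4% were called higher, 32.3% lower and 64.8% in either direction, so a call alone sets a gene little apart in this comparison.

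The promoter sequences of ENO2 and SYP, which rose, and of CHGA, which was lower, are shown from 150 bases before the annotated start up to that start, so that the elements near the start of the genes that differed can be read. They are from RefSeq (GRCh38.p14) and read 5′ to 3′ on the strand of the gene. The start is that of RefSeq, and bases are numbered from it. In ENO2, SYP and CHGA it lies inside the gene span given below, which comes from GENCODE 29. Part or all of each stretch therefore lies within that span. Capitals mark exact matches to the cAMP response element (CRE, TGACGTCA), the AP-1 site (TGACTCA or TGAGTCA) and the GC box (GGGCGG or CCGCCC), searched on both strands.
ENO2, chr12:6914430-6914579, plus strand: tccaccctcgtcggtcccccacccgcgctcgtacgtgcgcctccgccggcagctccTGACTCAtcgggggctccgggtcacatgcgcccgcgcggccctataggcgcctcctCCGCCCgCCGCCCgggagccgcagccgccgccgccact
SYP, chrX:49200194-49200343, minus strand: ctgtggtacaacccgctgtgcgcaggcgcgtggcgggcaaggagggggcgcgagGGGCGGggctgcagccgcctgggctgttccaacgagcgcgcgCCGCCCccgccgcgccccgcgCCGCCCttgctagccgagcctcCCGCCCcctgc
CHGA, chr14:92923000-92923149, plus strand: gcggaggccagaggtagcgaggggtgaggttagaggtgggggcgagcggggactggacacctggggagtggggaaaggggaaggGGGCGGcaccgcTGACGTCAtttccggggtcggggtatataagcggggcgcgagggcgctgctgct

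The ENO2 promoter holds an AP-1 match at base -94 and 2 GC boxes, the SYP promoter 4 GC boxes, and the CHGA promoter 1 GC box and the CRE at base -54. Among 35116 promoter windows of 300 bases (250 before to 50 after the start), 4.95% hold an AP-1 match, 45.0% a GC box and 1.85% a CRE. Windows were found for 5 of the 9 members, namely ENO2, SYP, CHGA, SRRM4 and REST, which has 2. No RE1 core of 17 bases was in any of these 6 windows, with or without 1 mismatch, and the closest stretches had 2 to 4 mismatches. A full RE1 core is in 24 of all windows (0.0683%) and one with at most 1 mismatch in 1.16%. RE1 elements of neuronal genes often lie outside such windows, so the search covers these bases only. All 6 member windows were rich in G and C, at 66.7% to 79.3% against a median of 58.7% over all windows.

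PEG10 (ENSG00000242265, chromosome 7, 94656325 to 94669695, GRCh38, GENCODE 29) is an imprinted gene of retrotransposon origin that is expressed in placenta and in neuroendocrine prostate cancer. Parental libraries 1 to 3 held 70, 41 and 41 PEG10 counts, and Enz-R libraries 1 to 3 held 252, 253 and 252. Scaled to library size, these were 2.44, 2.05 and 2.00 CPM in parental and 11.5, 14.9 and 16.3 CPM in Enz-R. The lowest Enz-R library was thus well above the highest parental one. The mean went from 2.16 ± 0.238 to 14.2 ± 2.46 CPM (SD, n = 3 each), a log2 fold change of 2.69 ± 0.16 (SE; edgeR adjusted p = 2.25e-09). Of all genes tested, 1.53% had a log2 fold change as high or higher.

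ENO2 (ENSG00000111674, chromosome 12, 6913745 to 6923698) encodes gamma enolase, also called neuron-specific enolase, a glycolytic enzyme whose blood level serves as a neuroendocrine tumour marker. Its level was 39.45, 27.4 and 34.1 CPM in parental and 93.5, 100.2 and 97.7 CPM in Enz-R libraries. The groups did not overlap, and the spread was wider among the parental libraries. The mean went from 33.7 ± 6.04 to 97.1 ± 3.37 CPM (SD, n = 3 each), a log2 fold change of 1.52 ± 0.10 (SE; edgeR adjusted p = 3.95e-09). Of all genes tested, 5.06% had a log2 fold change as high or higher.

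The other enolase genes did not move as ENO2 did. ENO1, the ubiquitous alpha enolase, fell from 1444 to 914 CPM (log2 fold change -0.66 ± 0.09), and the muscle enolase gene ENO3 rose from 33.4 to 48.0 CPM (0.52 ± 0.07). ENO4 was below the filter, with 29 parental and 31 Enz-R counts. Per kilobase of exon, ENO2 made up 2.90%, 2.45% and 2.75% of all enolase transcript in parental and 9.72%, 11.5% and 11.8% in Enz-R libraries. ENO1 remained the main form in both lines, with a mean of 94.6% in parental and 83.5% in Enz-R (n = 3 each).

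SYP (ENSG00000102003, chromosome X, 49187804 to 49200259) encodes synaptophysin, a membrane protein of synaptic and neuroendocrine vesicles used in tumour pathology. It stayed a low transcript, with 2.19, 2.00 and 2.78 CPM in parental and 4.705, 5.00 and 6.02 CPM in Enz-R libraries. These rest on 160 parental and 281 Enz-R counts, and the groups did not overlap. The mean went from 2.33 ± 0.406 to 5.24 ± 0.689 CPM (SD, n = 3 each), a log2 fold change of 1.17 ± 0.18 (SE; edgeR adjusted p = 4.13e-05). Of all genes tested, 8.31% had a log2 fold change as high or higher.

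REST (ENSG00000084093, chromosome 4, 56907876 to 56966678) was well expressed in both lines. Its level was 53.0, 53.5 and 57.8 CPM in parental and 52.3, 51.1 and 47.8 CPM in Enz-R libraries. All 3 Enz-R values lay below the parental ones, but by little, and groups did not overlap for 68.9% of all genes tested. The mean was 54.8 ± 2.64 in parental and 50.4 ± 2.33 CPM in Enz-R (SD, n = 3 each), a log2 fold change of -0.12 ± 0.07 (SE; edgeR adjusted p = 0.132). Its approximate 95% interval ran from -0.25 to 0.01, so that at this depth a fall of more than 1.19-fold lies outside it. With library totals as the only scaling the value was -0.21 (edgeR adjusted p = 0.0131), against a shift of the median gene from 0.01 to -0.08 under that scaling. Gene-level counts do not show which REST isoform was made.

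**Figure D1:**
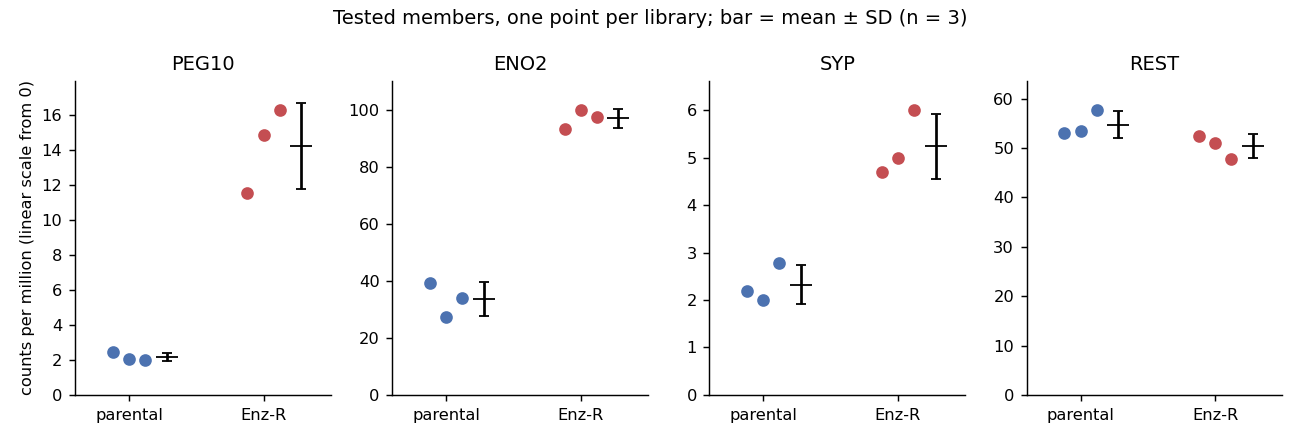
CPM on linear axes that start at 0, for PEG10, ENO2, SYP and REST, with each point 1 library and the bar the mean ± SD of 3 libraries. For PEG10, ENO2 and SYP every Enz-R library is above every parental one, while the REST points of both groups lie between 47.8 and 57.8 CPM.

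Among the granule proteins, CHGA (ENSG00000100604, chromosome 14, 92923080 to 92935293), which encodes chromogranin A, the granule protein most used as a blood marker, had 12, 12 and 5 counts in parental and 5, 0 and 1 in Enz-R libraries. The level was thus low throughout, and after scaling the highest Enz-R library (0.228 CPM) was just under the lowest parental one (0.244 CPM). Over the groups, 29 against 6 counts gave a level 3.80-fold lower in Enz-R (95% counting interval 1.55 to 11.2). In a fit without the filter, in which 17.3% of 39358 genes were called lower, CHGA was among them (edgeR adjusted p = 0.0133). Most Enz-R counts came from 1 library: without Enz-R replicate 1 the ratio of Enz-R to parental fell from 0.263 to 0.0735. CHGB (chromosome 20, 5911430 to 5925361), which encodes the related chromogranin B, had 1 count in all 6 libraries together, in parental 1.

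The remaining members were also near zero. NCAM1 (chromosome 11, 112961247 to 113278436), which encodes the adhesion molecule CD56, had 3, 1 and 1 counts in parental and 4, 3 and 3 in Enz-R. The ratio of 2.55 (95% counting interval 0.793 to 9.49) includes no change, and the fit without the filter did not call it (edgeR adjusted p = 0.336). SRRM4 (chromosome 12, 118981495 to 119163051) had 4, 2 and 0 counts in parental and 1, 1 and 0 in Enz-R, a ratio of Enz-R to parental of 0.424 (95% counting interval 0.0419 to 2.37; edgeR adjusted p = 0.549 without the filter). INSM1 (chromosome 20, 20368121 to 20370949), a zinc finger factor of neuroendocrine differentiation, had 1 count in all, in parental 3. For CHGB and INSM1, each with 0 counts in Enz-R, the limit that a count of 0 allows, 3 counts over the group, comes to 0.0552 CPM there. No fold is given for them, since both groups are under 3 counts. The intervals and limits cover counting error only.

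**Figure D2:**
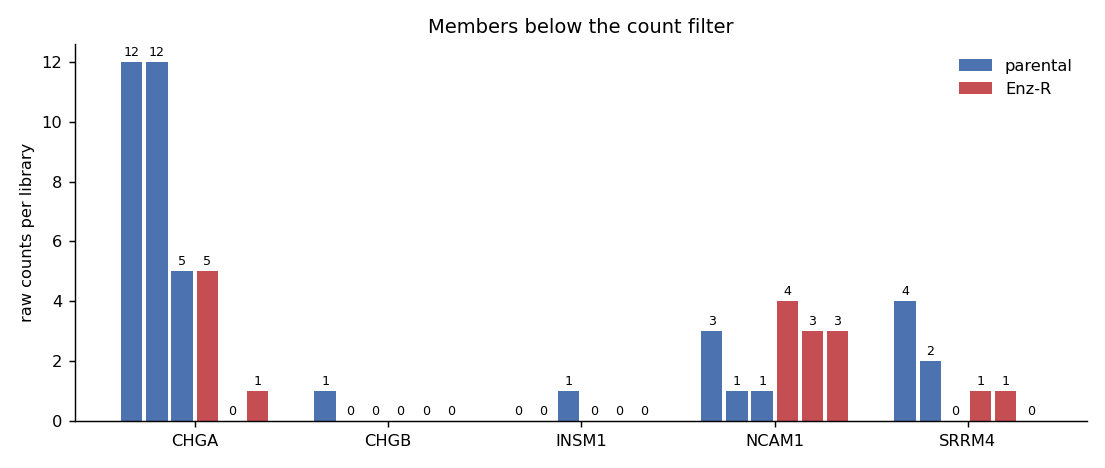
Raw counts in each library (linear axis from 0) for the 5 members below the count filter, with parental libraries 1 to 3 in blue and Enz-R libraries 1 to 3 in red. No bar exceeds 12 counts, CHGA is lower in Enz-R, and CHGB and INSM1 have a single count each.

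Levels of different genes were compared per kilobase of merged exons after scaling to library size (RPKM). In parental cells ENO2 (7.86 ± 1.41 RPKM) and REST (6.86 ± 0.330) came first and their libraries overlapped, followed by SYP (0.446 ± 0.0778) and PEG10 (0.324 ± 0.0356), whose libraries did not. CHGA stood at 0.136 ± 0.0575, and NCAM1, CHGB, INSM1 and SRRM4 each had a mean under 0.01 RPKM. In Enz-R the order was ENO2 (22.7 ± 0.787), REST (6.31 ± 0.292), PEG10 (2.13 ± 0.368) and SYP (1.01 ± 0.132), with no overlap between neighbours in the order. PEG10 and SYP thus changed places. All values are mean ± SD over 3 libraries.

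The genes next to each member differed in how far they moved with it. For each tested member, the 5 nearest tested protein-coding genes on either side were taken. ENO2 rose by more than any of its 10 neighbours, whose log2 fold changes ran from -0.54 to 0.57 with a median of 0.26, 6 of them called higher and 2 lower. The adjoining genes are LRRC23 (0.57) and ATN1 (0.38), and the glycolytic gene TPI1 nearby was lower (-0.41 ± 0.08). PEG10 also rose by more than its 10 neighbours, of which 2 were called higher and 3 lower, with a median of 0.02. The gene next to it, SGCE, is known to be expressed from the paternal chromosome, as PEG10 is, and starts in the opposite direction within the first bases of PEG10. SGCE had 42 parental and 34 Enz-R counts, a log2 fold change of 0.04 ± 0.36 (edgeR adjusted p = 0.929), whereas PPP1R9A on the other side rose from 3.67 to 15.3 CPM (2.06 ± 0.12).

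Around SYP, 8 of its 10 neighbours were called higher and 1 lower, with a median of 0.77. For ENO2 6 of 10 were called higher, and over all genes tested 32.4% were. PLP2, a gene of a membrane proteolipid close to SYP, rose by 1.21 ± 0.08, WDR45 by 0.85 ± 0.06, and PPP1R3F was lower by 0.68 ± 0.17 on the log2 scale. GAGE12J and GAGE13, cancer-testis genes with near-identical copies, rose by 4.14 ± 0.58 and 2.32 ± 0.28, and their counts are uncertain. The 10 neighbours of REST were mixed, with 5 called higher, 3 lower and a median of 0.28. Whether the members and their neighbours share a change in DNA copy number was not tested.

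**Figure D3:**
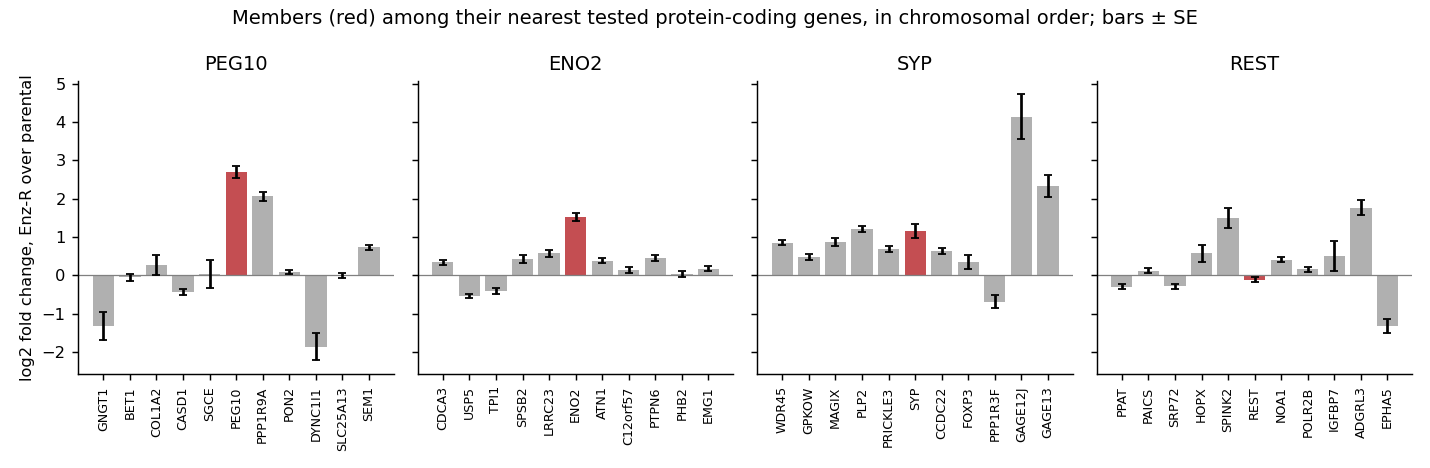
Log2 fold change of Enz-R over parental ± SE for each tested member (red) and the 5 nearest tested protein-coding genes on either side (grey), in chromosomal order. ENO2 and PEG10 stand above all of their neighbours, whereas SYP does not, and most genes around SYP and around ENO2 are positive.

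Some members overlap other genes, and how the authors counted reads in shared bases is not known. No source says that the kit marks strand, so reads in exons of genes on opposite strands cannot be told apart. PEG10 shares 219 exonic bases with SGCE, whose own counts were far fewer, SYP shares 68 with its antisense gene SYP-AS1, which had 1 count in each group, and REST shares 23 with NOA1. ENO2 overlaps LRRC23 on the same strand but shares 0 exonic bases with it.

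By the likeness of their levels over the 6 libraries, measured as the root mean square difference of mean-centred log2 CPM, the gene closest to PEG10 among 10902 well expressed ones was ATP8A1 (0.102), followed by DTX4 (0.157) and EML6 (0.163). SULT2B1 (0.0898), HOXC4 (0.0962) and SP6 (0.114) were closest to ENO2. ANKRD65 (0.0883), SPTBN1 (0.0904) and MYH7B (0.0923) were closest to SYP. VPS13B (0.0161), SPOPL (0.0213) and EFTUD2 (0.0228) were closest to REST. The 6 libraries form 2 groups, so likeness is mostly that of the difference between the lines.

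Other genes of the same systems were taken from lists and are given by counts beside the 32.4% of all genes called higher and the 32.3% called lower. Of 11 granins and prohormone-processing genes, 5 were tested, 3 rose and 0 fell, with a median log2 fold change of 0.55 against 0.01 for all genes. They were PCSK1N, an inhibitor of prohormone convertase (9.08 to 18.9 CPM, 1.06 ± 0.11), the carboxypeptidase gene CPE (22.1 to 33.8 CPM, 0.62 ± 0.10) and the peptide-amidating enzyme gene PAM (19.7 to 28.7 CPM, 0.54 ± 0.08). Named after their values were seen, the granin VGF stood at 4.41 CPM in parental and 4.96 in Enz-R (0.20 ± 0.19, edgeR adjusted p = 0.376), and the convertase gene PCSK1 had 12 and 2 counts. PCSK1N lies on chromosome X (48831094 to 48835633), near the genes taken around SYP. Whether its rise is linked to that of SYP was not tested. The order of calls between these lists and all genes was not tested.

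Of 23 synaptic vesicle and release genes, which include SYP, 17 were tested, 6 rose and 7 fell, with a median of -0.07. The synapsin gene SYN2 rose from 0.881 to 5.82 CPM (2.70 ± 0.20) and the vesicle GTPase gene RAB3A from 27.6 to 53.6 CPM (0.95 ± 0.09). Its relatives went the other way, RAB3B from 144 to 13.6 CPM (-3.40 ± 0.08) and RAB3D from 115 to 48.4 CPM (-1.24 ± 0.09), and the calcium sensor gene SYT1 fell from 1.67 to 0.187 CPM (edgeR adjusted p = 4.60e-05). SYT1 rests on 11 counts in Enz-R, and its log2 fold change ran from -4.06, without Enz-R replicate 1, to -2.47, without Enz-R replicate 2. SYP was thus 1 of 6 that rose among the 17. Among 22 other neuroendocrine and neuronal markers, 11 were tested, 4 rose and 5 fell (median -0.29). The tau gene MAPT (1.01 ± 0.06) and the Notch ligand DLL3 (19.5 to 28.1 CPM, 0.53 ± 0.09) rose, and the amine-synthesizing enzyme gene DDC (-3.25 ± 0.08), the tubulin gene TUBB3 (-1.81 ± 0.48) and NCAM2 (-1.29 ± 0.06) fell. TUBB3 rests on 18 counts in Enz-R, and its log2 fold change was -2.61 without Enz-R replicate 2 and -1.34 without Enz-R replicate 1. CRMP1 was called higher at 0.22 ± 0.09 but lost the call in 10 of 14 alternatives, among them the replicate block, library totals only, no filter, DESeq2 and limma-voom. UCHL1, a neuronal deubiquitinase named after its value was seen, was called higher at 1.64 ± 0.48 on 28 and 71 counts, with groups that overlapped. NCAM2, the close relative of NCAM1, had the higher level per length in both lines, at 21.6 RPKM in parental and 8.83 in Enz-R, against 0.00532 and 0.0145 RPKM for NCAM1.

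Of 24 transcription factors of neuroendocrine and small cell tumours, INSM1 among them, 13 were below the filter, 2 rose and 4 fell (median -0.18 over 11 tested). ONECUT2 rose from 26.4 to 39.7 CPM (0.58 ± 0.08) and the zinc finger gene MYT1 from 2.92 to 7.96 CPM (1.45 ± 0.16). NKX2-2 (-2.68 ± 0.35), SOX11 (-1.27 ± 0.12) and LHX2 (-0.90 ± 0.16) fell. NEUROD1, named after its values were seen, had 4 parental and 2 Enz-R counts.

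Around REST, all 20 genes of its corepressors and of its stability were tested, and 12 fell and 3 rose, with a median of -0.31. The histone demethylase gene KDM1A fell from 148 to 82.1 CPM (-0.85 ± 0.06), the scaffold gene SIN3A from 105.8 to 69.1 CPM (-0.61 ± 0.06) and RCOR2 from 5.54 to 4.02 CPM (-0.49 ± 0.18). RCOR2 was not called without parental replicate 1, Enz-R replicate 1 or Enz-R replicate 2 (-0.29, -0.39 and -0.49). CTDSPL (0.36 ± 0.08), HMG20B (0.27 ± 0.06) and RCOR3 (0.16 ± 0.06) rose, all by less than 1.5-fold. RCOR3 was not called with library totals only (0.071, edgeR adjusted p = 0.323), with no filter, or without parental replicate 2, parental replicate 3 or Enz-R replicate 2.

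A list of 40 neuronal genes taken to carry REST sites was written from general knowledge and includes SYP, CHGA, CHGB and SRRM4. The sites were not checked beyond the promoter windows. Of the 40 genes, 17 were below the filter, 5 rose and 11 fell (median -0.36 over 23 tested). SYP had the largest rise, followed by the channel gene HCN3 (0.81 ± 0.11) and the cadherin gene CELSR3 (0.52 ± 0.07). DISP2 (-1.98 ± 0.22), TUBB3 and the sodium channel gene SCN2A (-1.62 ± 0.36) fell most. Leaving out parental replicate 1, 2 or 3 or Enz-R replicate 2, only 3 were called higher, as with library totals only, no filter or DESeq2, and CRMP1 was 1 of those that lost the call, as it did in most alternatives. Full RE1 cores lay in the promoter windows of 2 genes of this list, shown in capitals on the strand of the element (RefSeq, GRCh38.p14).
SYN1, chrX:47620074-47620090: TTCAGCACCGCGGACAG
GRIA2, chr4:157220392-157220408: TTCAGCACCGAGGACAG
Both were at very low counts, SYN1 with 4 parental and 12 Enz-R and GRIA2 with 5 and 2. Of all 21 genes with a full core in a window, 19 were in the count table, 12 of them below the filter. CD59, TTC9B, UCN and ZNF823 were the 4 called higher and EFL1, PDE2A and TMEM179 the 3 called lower, all named after their values were seen.

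SRRM4 belongs to the neural splicing regulators, of which 17 of 23 were tested, 5 rose and 8 fell (median -0.15). Its relative SRRM3, which shares its neural exon targets, fell from 25.8 to 9.52 CPM (-1.43 ± 0.11). KHDRBS3 rose from 1.25 to 11.3 CPM (3.19 ± 0.21), CELF4 from 1.61 to 6.54 CPM (1.97 ± 0.21) and NOVA1 to a log2 fold change of 1.52 ± 0.14, while PTBP3 (-1.09 ± 0.06) and the epithelial regulator gene ESRP1 (-0.69 ± 0.06) fell. Splicing itself was not analysed here. Of 15 Polycomb and chromatin genes, 4 rose and 8 fell, among them EZH1 (0.55 ± 0.08), CBX2 (0.46 ± 0.06) and RBBP7 (0.25 ± 0.06) higher and CBX5 (-1.44 ± 0.07), DNMT3A (-1.18 ± 0.06) and DEK (-0.49 ± 0.06) lower. EZH2, the Polycomb methyltransferase gene, named outside the rule, stood at 90.6 CPM in parental and 81.5 in Enz-R (-0.16 ± 0.095, edgeR adjusted p = 0.160). RB1 was lower by 0.24 ± 0.07 on the log2 scale, and the kinase gene AURKA rose by 0.33 ± 0.07. Of 21 genes near PEG10 or of like retrotransposon origin, PEG10 among them, 12 were tested, 3 rose and 3 fell (median 0.03). Those that rose were PEG10 itself, PPP1R9A and RTL5 (0.50 ± 0.13), while RTL6 (-0.89 ± 0.07) and RTL10 (-0.55 ± 0.06) fell.

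**Figure D4:**
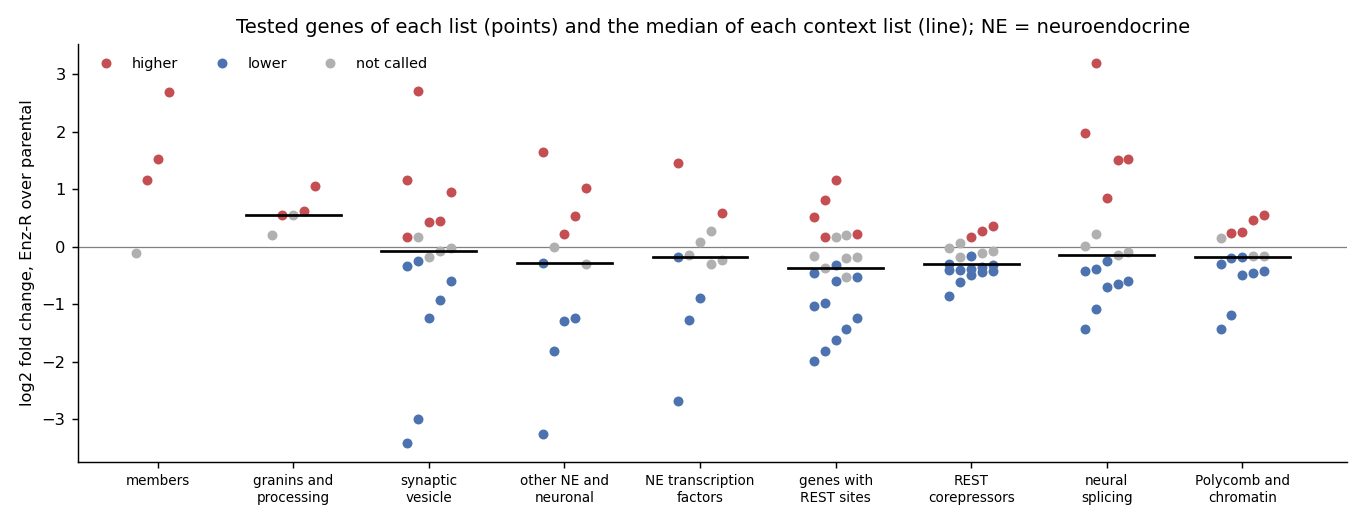
Log2 fold change of Enz-R over parental for every tested gene of the members and of 8 context lists, with genes called higher in red, lower in blue and not called in grey, and the line the median of each context list. Of the 4 tested members 3 are called higher and REST is not called. Higher and lower calls are mixed in every context list except the granins, where 0 genes are called lower. SYP is plotted again in the synaptic vesicle list and among the genes with REST sites.

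Luminal prostate markers were high in both lines. All 9 luminal markers were tested, with sums of 9452 to 10056 CPM in the parental and 5434 to 5645 CPM in the Enz-R libraries, and 6 fell and 2 rose. KLK3, which encodes prostate-specific antigen, was at 4768 CPM in parental and 2533 CPM in Enz-R. Fibroblast markers summed to 60.3 to 63.4 CPM in parental and 49.5 to 58.6 in Enz-R, mostly from COL1A1, endothelial markers to 9.64 to 11.96 and 4.71 to 6.02 CPM, and leukocyte markers to 2.95 to 3.61 and 2.46 to 3.06 CPM. No marker of these 3 lists was at 0 in all libraries, but DCN, LUM, PECAM1, CDH5, PTPRC and CD3E had at most 6 counts in a group. Their part in the members' differences was not tested. Library totals ran from 15673404 to 28247038 counts, and mitochondrially encoded genes took 8.78% to 11.3% of the parental and 14.5% to 15.5% of the Enz-R counts. With these genes left out, REST stood at -0.12 (edgeR adjusted p = 0.122) and the same number of members, 3, was called higher. In bulk RNA, a change in every cell and a change in the share of cells that express a gene cannot be told apart.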

How the data were processed

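The authors' deposited table holds raw counts per gene and library, whole numbers for 59565 loci, from 150 bp paired-end reads. The submitters' processing notes name HISAT2 and GRCh38. No source used here gives the HISAT2 version, counting tool, annotation or strand setting. All 58676 Ensembl identifiers were found in GENCODE 29, which gave positions and exon lengths, and current symbols came from a separate list of gene names. The other 889 loci are unannotated.

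The members, gene lists, tests and alternatives were chosen with earlier results of these data known. Enz-R and parental libraries were compared in R 4.3.3 with edgeR 4.0.16 (filterByExpr, TMM scaling, glmQLFit, glmQLFTest, no covariate), with Benjamini-Hochberg adjustment over 19029 genes and a threshold of 0.05. Mean CPM and RPKM use TMM-scaled totals. The SE was derived from the F statistic and can be too small at low counts. Members below the filter are given as ratios of scaled group counts with an exact conditional binomial 95% interval. Named genes are the members, up to 3 called rises and 3 called falls per list whose groups do not overlap and whose higher mean reaches 1 CPM, all enolase genes, RB1, SGCE and the neighbours and like-patterned genes that their rules gave. Other genes named, among them KLK3 and COL1A1, were chosen after their values were seen. Some genes that the rule gave are not reported here. Likeness was computed over protein-coding genes averaging 5 CPM or more, with 0.5 added to each count. RE1 was searched as its degenerate 17-base core. Alternatives were each library left out, a block for replicate number, size factors of DESeq2, library totals only, mitochondrially encoded genes left out, no filter, a filter of 50 counts in 3 libraries, voom of limma 3.58.1 and the DESeq2 1.42.0 test. Promoter searches and figures used Python 3.11.15, matplotlib 3.10.9 and pandas 2.3.3.

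Between replicates the chi-square per degree of freedom was 4.30 to 10.1, which is more than counting error gives. On simulated data for Enz-R against parental with 19029 genes, planted changes were recovered in 71.6% of genes at 1.5-fold, 86.6% at 2-fold and 66 of 66 at 4-fold. Among 18829 genes left unchanged, 6 were called. The simulation gave every gene the same dispersion (a coefficient of variation of 7.20%) and planted changes in only 67, 67 and 66 genes at these folds. In the real comparison 64.8% of genes were called and dispersion can differ by gene, so these shares need not hold there.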

Additional observations from a re-analysis of the deposited data

How the results depend on the processing

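PEG10, ENO2 and SYP kept their direction and their call in all 14 alternatives, with log2 fold changes of 2.59 to 2.83, 1.39 to 1.65 and 1.07 to 1.30. REST ran from -0.21 to -0.08 (edgeR, DESeq2 or limma adjusted p = 0.0131 to 0.374) and was called only with library totals as the only scaling (-0.21), where 1 member was called lower in place of 0. Without the filter 1 member, CHGA, was called lower. The 3 calls higher did not change in number. SGCE, which was not called, turned to -0.055 with library totals only and ran from -0.25 to 0.26 with 1 library left out. Over all genes, 5097 to 6475 were called higher and 5049 to 7094 lower. Of 66 named genes, 58 kept direction and side of the threshold in every alternative run for them. Most of them were named because they were called in these same libraries, so that count is no independent support. An RE1 core in member promoters was found in 0 windows with and without 1 mismatch. The cause of these changes was not tested. Same-numbered libraries did not deviate together (correlations of 0.05, -0.01 and 0.01), so the numbers are not taken as pairs. With the replicate number as a block 3 members were called higher and 0 lower, over all genes 6179 higher and 6158 lower, and SYP stood at 1.17. Totals of 15673404 to 28247038 counts limit what can be said of CHGB, INSM1, NCAM1 and SRRM4.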
